A study of Mus musculus with 6 samples.

Results

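The Ly6 window is a 220 kb stretch of mouse chromosome 15 (mm9, 74780000 to 75000000, both ends included) that holds Ly6a, Ly6c1 and Ly6c2. Its members are the MBD2 peaks that overlap it by at least 1 bp. There are 8 of them among the 164274 peaks of the 3 deposited lists, namely 2 of 85797 in stem cells (HSC), 4 of 50638 in common myeloid progenitors (CMP) and 2 of 27839 in erythroblasts (ERY). The window was compared with the 300 kb on each side of it, which hold 37 peaks, of which 19 are HSC, 12 CMP and 6 ERY peaks. The window was chosen by its genes and with the positions and widths of 2 of its peaks in view, a wide CMP peak and the ERY peak over it, so its peak counts, widths and classes are given as a description and no test was made on them.

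MBD2 is a protein that binds methylated CpG dinucleotides, and sequencing the DNA it pulls down marks stretches of methylated DNA as peaks. All samples are labelled female C57BL/6. Per the labels, HSC were adult bone marrow cells without lineage markers that carried Sca-1 and c-kit, and CMP were such cells with c-kit and without Sca-1. The labels give no source or sort for ERY, and do not say whether animals were pooled. The HSC gate is known to hold multipotent progenitors beside stem cells, and the CMP gate other committed progenitors. Each cell type has 1 MBD2-enriched library analysed here, without read counts. The lists hold no expression, so the cell type labels were not checked against marker genes.

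Ly6 genes encode small surface proteins held to the membrane by a glycolipid anchor. Ly6a encodes Sca-1, the stem cell antigen on which the HSC and CMP gates differ. Ly6c1 and Ly6c2 encode Ly-6C, a surface protein of monocytes and other myeloid cells and of some lymphocytes and endothelial cells. The antibody mix used to deplete lineage-positive cells included one to Ly-6G and Ly-6C, per the labels. The gates therefore rest in part on proteins of this gene family, beside c-kit and other lineage markers. In the RefSeq gene table, which belongs to another build (GRCm38), all 21 listed genes of the family and its neighbours lie on chromosome 15. They run in the order Ly6m, Ly6e, Ly6i, Ly6a, Ly6c1, Ly6c2, Ly6a2, Ly6g and Ly6f around the 3 named genes. Positions of that build were not carried over to mm9, so no peak below is assigned to a promoter, an exon or an intron.

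Promoter sequences were at hand for 2 of the 3 named genes, Ly6c1 and Ly6c2, and for 5 of the 21 listed genes. They are shown because the assay reads methylated CpG. The 250 bases before the start farthest upstream are given 5′ to 3′ on the gene's strand, with CpG in capitals. Both genes lie on the minus strand (RefSeq, GRCm38.p6, Ly6c1 at chr15:75048838-75049087 and Ly6c2 at chr15:75111972-75112221, which are not mm9 positions).
Ly6c1: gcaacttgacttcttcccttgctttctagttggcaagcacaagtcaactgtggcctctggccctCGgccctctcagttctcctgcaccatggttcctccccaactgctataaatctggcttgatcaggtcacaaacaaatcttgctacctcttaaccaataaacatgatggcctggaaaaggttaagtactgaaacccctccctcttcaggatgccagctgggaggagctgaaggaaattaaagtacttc
Ly6c2: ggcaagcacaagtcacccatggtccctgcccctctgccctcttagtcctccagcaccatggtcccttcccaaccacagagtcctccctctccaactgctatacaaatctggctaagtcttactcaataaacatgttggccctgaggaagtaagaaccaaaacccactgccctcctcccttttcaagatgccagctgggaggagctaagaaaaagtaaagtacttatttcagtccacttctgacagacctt
The Ly6c1 stretch held 1 CpG and the Ly6c2 stretch 0. Among all 32851 promoter entries of the table the median over the same 250 bases was 6 CpG, and 18.8% held at most 1. The same stretches of Ly6a2, Ly6g and Ly6f held 0, 1 and 0 CpG. These 5 promoters of the family were thus poor in the dinucleotide that the assay reads. The ETS motif GGAAGT, on either strand, occurred once in Ly6c2 and not in Ly6c1. It also occurred once each in Ly6a2, Ly6g and Ly6f, and 19.7% of all entries held it. The Ly6c2 and Ly6a2 stretches agree at 94.9% of alignment columns, so their occurrences are not separate. Nothing is read from this count against the share of all entries.

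Reads were 36 bp long and had to be placed uniquely, and a pair of these promoters was nearly identical. Ly6c2 and Ly6a2 agreed at 94.9% of 255 alignment columns, and 113 of the 215 words of 36 bases in one were found unchanged in the other. A read from such a word has no unique place. The other pairs agreed at 49.5 to 66.4% of their columns and shared at most 2 of 215 words. Ly6c1 and Ly6c2 were among them, with 171 identical bases in 290 columns (59.0%) and 0 shared words. Columns with a gap count as unlike, so these shares understate the likeness of the aligned bases. The printed Ly6c1 and Ly6c2 stretches are offset, since ggcaagcacaagtca opens Ly6c2 but lies further into Ly6c1. Both also hold gatgccagctgggaggagct. The 59.0% therefore does not show that these promoters are dissimilar. How much of the mm9 window could be read uniquely was not analysed here.

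The window held few HSC peaks and, beside them, a wide block of methylation called in CMP and ERY only. Bases under a peak came to 934 in HSC, 4207 in CMP and 3236 in ERY. CMP thus covered 4.50 times and ERY 3.46 times as many bases as HSC. In the flanks the order was the opposite, with 14610 bases in HSC, 9060 in CMP and 4906 in ERY, ratios to HSC of 0.620 and 0.336. Over the autosomes and X the ratios were 0.626 and 0.330, close to those of the flanks. Without its widest region the window kept 934, 2225 and 863 bases, and the ratios were 2.38 for CMP and 0.924 for ERY. The ERY value above HSC thus rested on that 1 region. The widths of its CMP and ERY peaks were in view when the window was chosen, so nothing is read from the contrast with the flanks. No cell type has a second library, so these differences have no replicate check.

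**Figure D1:**
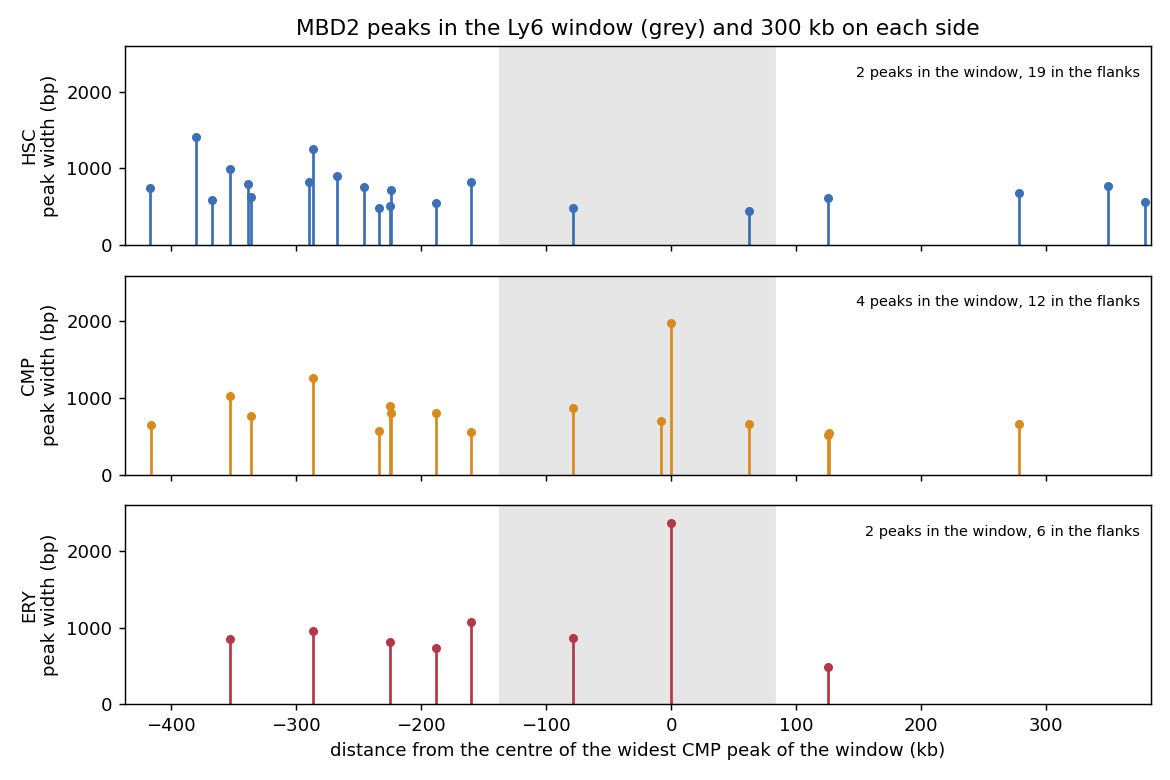
Width in bp of each MBD2 peak in HSC, CMP and ERY against its distance in kb from the centre of the widest CMP peak, with the Ly6 window in grey. The 2 HSC peaks of the window are 488 and 446 bp wide, while CMP and ERY each have a peak near the middle, 1982 and 2373 bp wide, where HSC has none.

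Merging the peaks of the 3 lists gave 4 regions in the window, each of a different class. The first, at 74837991 to 74838889, was called in all 3 cell types. HSC covered 488 bp there, CMP 868 bp and ERY 863 bp. The HSC peak lay wholly inside both others, which began 142 bp (CMP) and 173 bp (ERY) before it and ended 238 and 202 bp after it. The CMP and ERY peaks nearly coincided, sharing 832 bp. Both later peaks were wider than that of HSC here, as in 28.3% of the 24935 regions of the genome with a peak in all 3 lists, and in 2 of the 6 such regions of the flanks.

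The second region, at 74908481 to 74909176, was a CMP peak of 696 bp with no HSC or ERY peak. It was narrower than the median CMP peak of 818 bp. Only 6383 bp separated it from the third region, while the other 2 gaps between the regions of the window were 69591 and 60538 bp. The CMP list thus had a pair of neighbouring peaks in the middle of the window, and the ERY list kept a peak at the wide one alone.

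The third region, at 74915560 to 74917932, is the one that drew attention to the window. The CMP peak spanned 1982 bp and the ERY peak 2373 bp, and HSC had none. The CMP peak lay wholly inside the ERY peak, which began 249 bp before it and ended 142 bp after it. By width the CMP peak was number 600 of its list, wider than 98.8% of CMP peaks, and the ERY peak was number 109, wider than 99.6% of ERY peaks. ERY covered more bases than CMP here, as in 28.9% of all 25218 regions with a peak in both. Among the 283 regions with CMP and ERY peaks but no HSC peak, the class of this region, the share was 50.2%.

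Regions with a peak in CMP and ERY but not in HSC are rare, with 283 among 87514 merged regions (0.323%). Their median length was 760 bp (interquartile range 642 to 866). The region in the Ly6 window was the longest of the 283, at 3.12 times that median. The widths of its peaks were in view when the window was chosen, so this rank is a description only. The next longest, on chromosome 7 at 6373112 to 6374555, spanned 1444 bp. Chromosome 15 carried 13 of the 283, and the nearest other one lay 3873960 bp away, at 71040932 to 71041599. The wide block was therefore not part of a local run of regions of its class.

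The fourth region, at 74978471 to 74979175, had a peak of 446 bp in HSC and of 661 bp in CMP, and none in ERY. The peaks shared 402 bp. It lay nearest to an edge of the window, 20825 bp from the higher one. The first region lay 57991 bp from the lower edge. Just outside the edges, the nearest regions were both called in all 3 cell types. The one at 74756626 to 74757693 had 829 bp (HSC), 554 bp (CMP) and 1068 bp (ERY), and the one at 75041647 to 75042254 had 608, 516 and 486 bp.

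**Figure D2:**
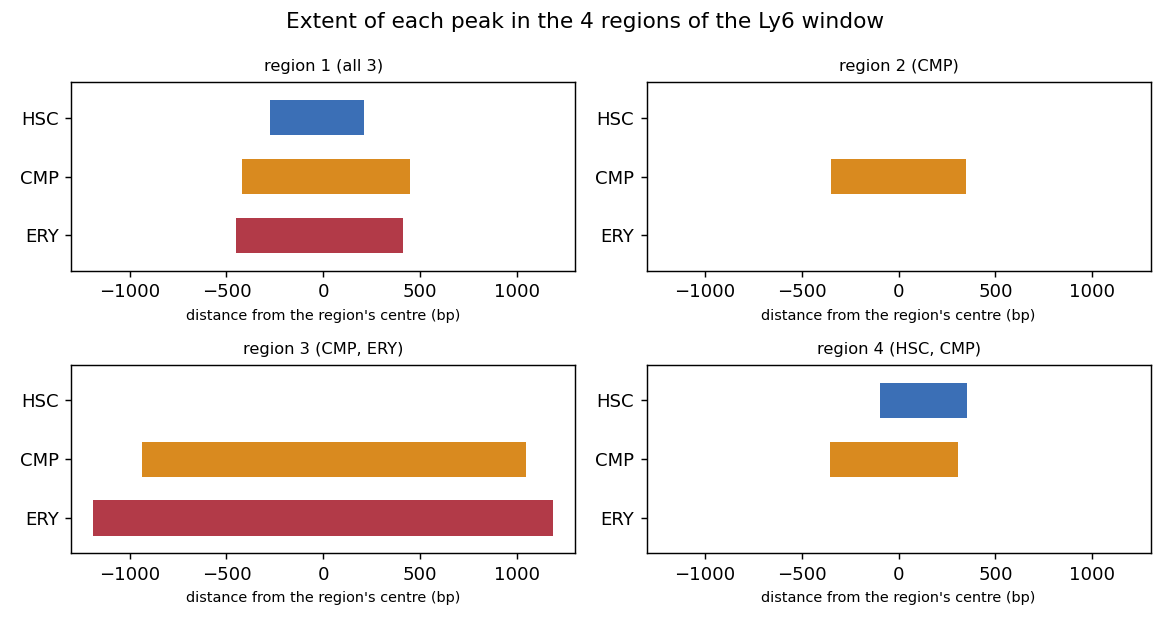
Extent of the HSC, CMP and ERY peaks in each of the 4 regions of the window, as distance in bp from the region's centre. In region 1 the HSC peak lies inside both others, and in region 3 the CMP peak of 1982 bp lies inside the ERY peak of 2373 bp.

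**Figure D3:**
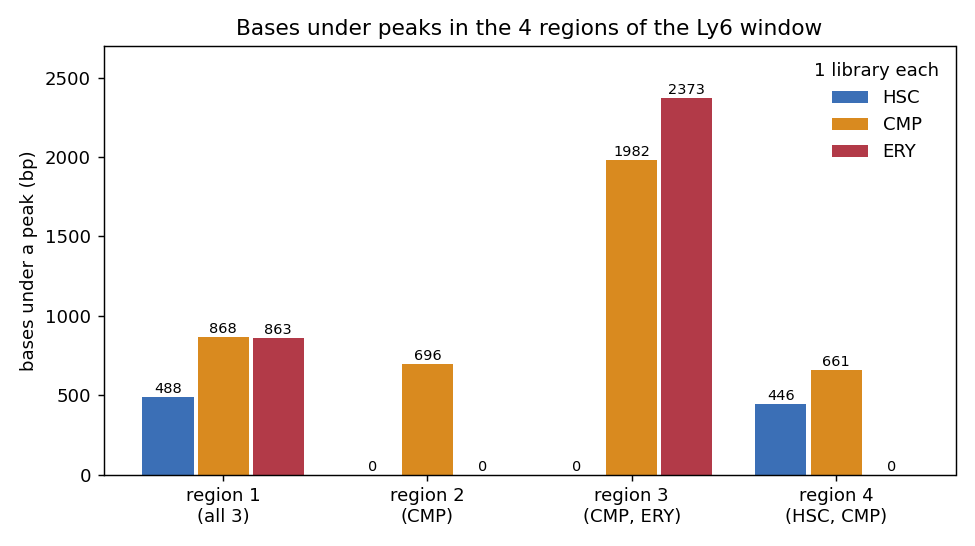
Bases under a peak in HSC, CMP and ERY for the 4 regions in order along the chromosome, 1 library per bar. HSC has bars of 488 and 446 bp in regions 1 and 4 only, and region 3 holds the tallest bars, of CMP and ERY.

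From HSC to CMP the window lost no region and gained 2, while the flanks lost 8 and gained 1. Over all regions with a peak in either list, 2.06% were gained and 42.4% were lost at this step. Both HSC peaks of the window (2 of 2, exact 95% interval 15.8 to 100%) had a CMP peak, against 57.9% (33.5 to 79.7%) of the 19 in the flanks and 57.1% of all HSC peaks. Read the other way, 2 of the 4 CMP peaks overlapped an HSC peak (6.76 to 93.2%), against 11 of 12 in the flanks (61.5 to 99.8%) and 96.5% of all CMP peaks. The wide CMP peak known when the window was chosen is among the 4, so the shares are given side by side only.

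From CMP to ERY the window lost 2 regions and gained none, beside 6 lost and none gained in the flanks. Over all regions with a peak in either list, 47.4% were lost and 3.99% gained. Of the 4 CMP peaks, 2 had an ERY peak (50%, 6.76 to 93.2%), as had 6 of 12 in the flanks (21.1 to 78.9%) and 50.7% of all CMP peaks. The wide CMP peak and the ERY peak over it, known when the window was chosen, are among the peaks kept. The shares are therefore given side by side only. The 2 CMP peaks without an ERY counterpart were the narrowest of the 4, at 696 and 661 bp.

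From HSC to ERY the window lost 1 region, kept 1 and gained 1, whereas the flanks lost 13, kept 6 and gained none. Over all regions with a peak in either list, 68.3% were lost and 1.51% gained. Since the window was chosen with the gained region known, nothing is read from its count against that share. Of the 2 HSC peaks 1 had an ERY peak (1.26 to 98.7%), against 6 of 19 in the flanks (12.6 to 56.6%) and 30.9% of all.

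Peak density in the window was low in HSC. The 2 HSC peaks amounted to 9.09 per Mb, against 31.7 in the flanks, 39.6 on chromosome 15 and 33.3 over the autosomes and X. The ratio of window to flanks was 0.287 in HSC, with an interval of 0.0324 to 1.19 from counting error. CMP had 18.2 peaks per Mb in the window and 20.0 in the flanks, and ERY 9.09 and 10.0, a ratio of 0.909 in both, with intervals of 0.214 to 2.9995 and 0.0897 to 5.08. The CMP and ERY counts include the wide peaks known beforehand, and nothing is read from these ratios.

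The flanks were unlike each other. The lower flank held 15 HSC, 9 CMP and 5 ERY peaks, and the higher one 4, 3 and 1. Against the higher flank alone, the window was denser in CMP (ratio 1.82) and in ERY (2.73) and sparser in HSC (0.682). Of the 20 regions of the flanks, 8 had a peak in HSC alone, 5 in HSC and CMP, 6 in all 3 and 1 in CMP alone. The widest of them was the HSC peak at 74536400 to 74537810 (1411 bp), which had no CMP or ERY peak. The flank region without HSC, a CMP peak of 541 bp at 75042992 to 75043532, was narrow. No region of the flanks had CMP and ERY peaks without HSC.

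The 2 HSC peaks of the window were narrower than most HSC peaks. Of all HSC peaks, 12.6% were narrower than the first (488 bp) and 8.05% narrower than the second (446 bp), and the list's median was 748 bp. In the flanks, HSC peaks ranged from 485 to 1411 bp with a median of 743 bp. Both HSC peaks of the window fall outside the wider 50% of the HSC list, while both ERY peaks and 2 of the 4 CMP peaks fall inside theirs. The wide CMP peak and the ERY peak over it, known beforehand, are among these, so nothing is read from the difference.

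Between the 2 HSC peaks lay 140078 bp without an HSC peak, from 74838652 to 74978729, and the neighbouring free stretches were 80628 and 62471 bp. The central stretch was longer than 96.1% of all gaps between HSC peaks, whose median was 10658 bp, and ranked number 137 by length on chromosome 15 alone. It held 2 CMP peaks and 1 ERY peak. Of the 5587 stretches of at least 100 kb between HSC peaks on the autosomes and X, 7.41% held a CMP peak, 5.19% an ERY peak and 1.47% (82) a region with both. The stretch in the window, itself 1 of the 82, is given beside these shares as a description.

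For a view over the genome, the autosomes and X were divided into 11709 windows of the same length, leaving out those that overlap the Ly6 window. The median window held 5 HSC, 3 CMP and 1 ERY peak. Fewer HSC peaks than the 2 of the Ly6 window were found in 17.6% of them, so a low HSC count is common at this scale. More CMP than HSC peaks, as in the Ly6 window, were found in 1.70% of the 10895 windows with an HSC peak. At least as many ERY as HSC peaks were found in 5.54%, more ERY than HSC bases in 2.14%, and an ERY to HSC ratio of bases as high as here in 0.0367% (4 windows).

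Among the 1359 windows with exactly 2 HSC peaks, the median was 1 CMP and 1 ERY peak. At least 4 CMP peaks were found in 0.147% (2 windows) and at least 2 ERY peaks in 11.0% (149), and 1 window (0.0736%) had both. Since the gained region was known when the window was chosen, these shares say where the window lies among others and support nothing further.

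**Figure D4:**
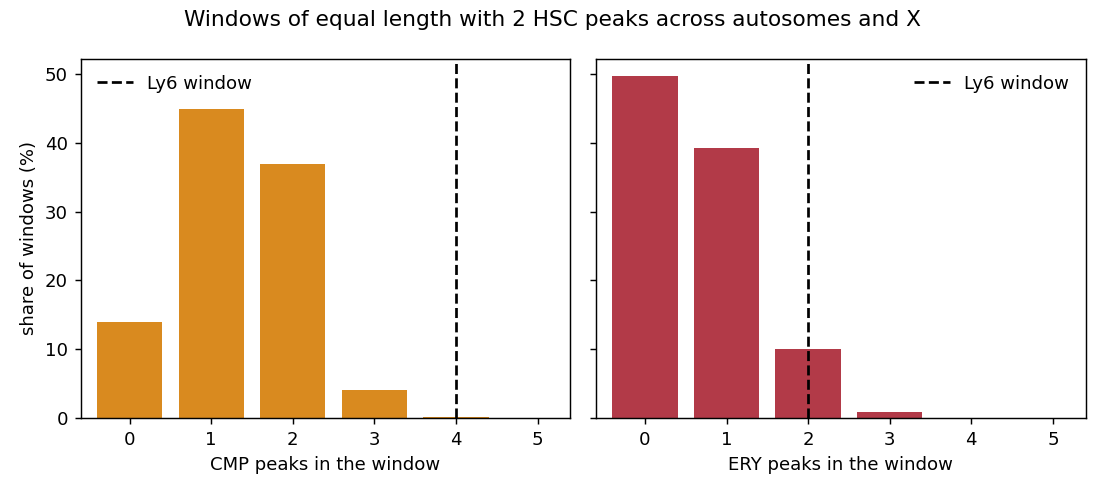
Share in percent of the 1359 windows of equal length with 2 HSC peaks that hold a given number of CMP peaks (left) or ERY peaks (right), with the Ly6 window as a dashed line. The Ly6 window, with 4 CMP peaks, lies at the far end on the left, while its 2 ERY peaks are matched or passed by 11.0% of the windows on the right.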

How the data were processed

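Genomic DNA bound by MBD2 was sequenced as 36 bp single-end reads, 1 library per cell type, per the labels' protocols. The authors deposited 1 list of peak positions per library, with chromosome, start and end and no score, exported from a genome browser per the file headers. Positions are on mm9, as the submitters' processing notes state. For aligner, peak caller, threshold and control, the choice is not given in the sources at hand. Depth is unknown, so a stretch without a peak was not called, which does not show that it is unmethylated. The 3 supernatant libraries are not analysed here.

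Peaks sharing at least 1 bp were called overlapping, and overlapping or touching peaks were merged into regions. Lost means a peak in the earlier list only, gained in the later only. Exact (Clopper-Pearson) 95% intervals assume independent peaks and reflect counting error alone. Interval functions were tested on simulated data and against bedtools 2.31.1. Chromosome lengths were taken as the span of all peaks. Every region of the window is named, and in the flanks the widest. The window, the gene list and the comparisons were chosen with earlier results of these data known. Promoters were aligned globally with Biopython 1.88. Python 3.11.15, numpy 2.4.6, pandas 2.3.3, scipy 1.17.1 and matplotlib 3.10.9 were used.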

Additional observations from a re-analysis of the deposited data

How the results depend on the processing

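Of 76 values recomputed under alternatives, 48 stayed within their interval or within 1.5 times. Some of these intervals are wide, so staying inside one is a weak check. The HSC density ratio, 0.287 in the main run, was counted as staying at 0.153 (1 Mb on each side) and 0.682 (higher flank alone). With the wider 50% of each list, HSC had 0 peaks and 0 bases in the window (ratio to the flanks 0) and CMP 2 peaks. In that setting 100% of CMP peaks were kept in ERY, 0 regions were lost from CMP to ERY and 0 from HSC to ERY, and 2 were gained from HSC to ERY. No share of HSC peaks kept could then be given. The ratio of window to flank density turned from below to above 1 in CMP and ERY with that setting (1.82 and 1.36), with the higher flank alone (1.82 and 2.73) and in bases per kb (1.27 and 1.80). It fell further below 1 in both with 1 Mb on each side (0.519 and 0.413) and the lower flank alone (0.606 and 0.545). Against the rest of chromosome 15 it was 0.767 and 0.682. In HSC it stayed below 1 in each alternative run. Extending the window by 50 kb on each side gave 2371 HSC, 5818 CMP and 4790 ERY bases. CMP and ERY still covered more bases than HSC, but by smaller ratios than in the main run. In 1 kb bins, 5 were gained from HSC to CMP, 4 lost and 1 gained from CMP to ERY, and 2 lost and 4 gained from HSC to ERY. Among equal-length windows with at least as many HSC peaks as here, 1.20% had more CMP than HSC peaks and 2.19% at least as many ERY. Chosen after seeing the data: stretches of at least 50 kb between HSC peaks held a region with CMP and ERY peaks in 0.906%, equally long lists of the widest peaks left 0 HSC and 2 CMP peaks, and without the widest region CMP had 2225 bases and ERY 1 peak of 863 bases. A width cut removes peaks, a bin splits one, and a longer window adds bases, by construction. For the other shifts the cause was not tested. No paired analysis was possible because each cell type has 1 library. Unknown depth limits every statement on absent peaks.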
